A study of Mus with 6 samples.

Results

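Glucocorticoids are adrenal steroid hormones that cross the cell membrane and act on a pair of nuclear receptors, the glucocorticoid receptor encoded by Nr3c1 and the mineralocorticoid receptor encoded by Nr3c2. The receptors wait in the cytoplasm in a complex with HSP90 chaperones, enter the nucleus once the hormone is bound, and switch genes on or off; microglia are known to carry the glucocorticoid receptor, through which these hormones restrain inflammatory genes. The genes described here are these receptors, the enzyme gene Hsd11b1, whose product regenerates active hormone inside the cell, and Fkbp5, Tsc22d3, Sgk1, Zbtb16 and Ddit4, which are widely used as readouts of glucocorticoid action. The 8 genes were chosen by symbol from the 18887 genes of the deposited table; all 8 were present and all 8 passed the filter on low values, among 14698 genes tested.

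The study compared 4 precipitates labelled IRKO, with the genotype KO, and 2 precipitates labelled MG, with the genotype Ctr, called control here. Both groups were RiboTag immunoprecipitates, in which a tagged ribosomal protein is used to pull down the ribosome-bound mRNA of a chosen cell type, here microglia by the labels, from whole mouse brain. The insulin receptor is read as the lost gene from the study's title. The labels give no strain, age or treatment, and the promoter that drives the deletion and any pooling of animals were likewise not given in the sources used here.

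Depth was 13858978 to 14568773 recovered reads in the IRKO libraries and 16883098 and 19010680 in the controls. Insr, the insulin receptor gene, had a normalized count of 338 ± 33.5 (SD, n = 4) in IRKO and 548 ± 23.4 (SD, n = 2) in control precipitates (log2 change −0.70 ± 0.135, SE, limma adjusted p = 0.00211). Of 20 microglia markers all 20 were read in every library and rose in IRKO, with a summed normalized count of 267000 to 380800 in IRKO and 101100 to 126300 in controls. All 18 astrocyte markers fell, with sums of 27360 to 36930 in IRKO and 499800 to 626700 in controls, so that the control precipitates held more astrocyte marker counts than microglia marker counts. Neuron markers summed to 78780 to 102100 in IRKO and 45320 to 54030 in controls, and 13 of 16 rose. Red blood cell markers summed to 243.5 to 2132 in IRKO and to 75520 and 161600 in control replicates 1 and 2, and liver markers to 25.8 to 77.7 in IRKO and to 811 and 11760 in the same controls; 3 liver markers were at 0 in every IRKO library. No marker of microglia, astrocytes, neurons or oligodendrocytes was at 0 throughout a group. In such bulk precipitates fewer cells of a type and less RNA per cell cannot be told apart.

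Among the 8 genes as deposited, Sgk1 and Fkbp5 rose in IRKO, Hsd11b1 and Tsc22d3 fell, and the other 4 did not pass, while with libraries scaled to the microglia markers Fkbp5 turned to −0.15 on the log2 scale. The test was limma across all genes, at a Benjamini-Hochberg adjusted p under 0.05. The groups did not overlap for the 4 that passed and overlapped for the 4 that did not. Across all genes tested 55.6% were called in either direction, 26.6% higher and 29% lower, and for 67.6% the IRKO and control values did not overlap. The 4 of 8 called here is near that share. The median log2 change was −0.029 over the 8 genes and 0.017 over all genes. Per the RefSeq annotation Nr3c2, Fkbp5, Sgk1 and Zbtb16 overlap noncoding or predicted genes, of which only Gm32280, inside Zbtb16, is a row of the table, with a highest normalized count of 2.92; without knowledge of strand, reads of overlapping genes cannot be told apart.

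**Figure D1:**
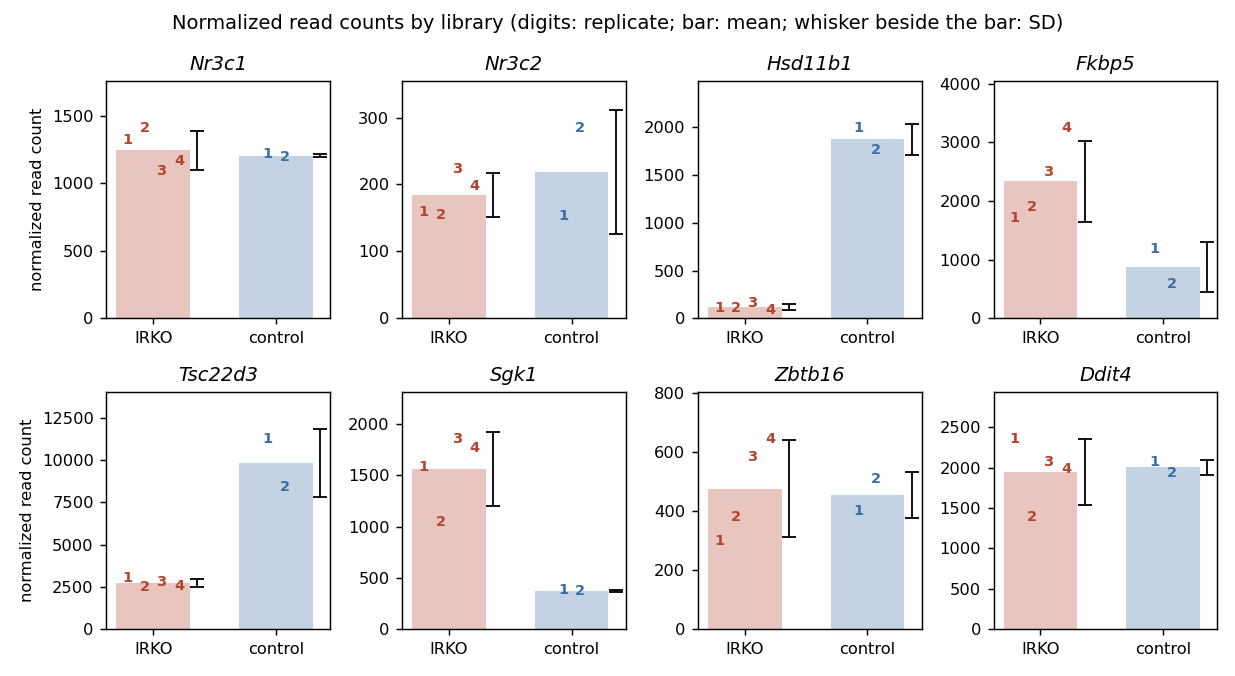
Normalized read counts of the 8 genes, with 4 IRKO libraries on the left and 2 control libraries on the right of each panel. Digits are replicate numbers at each library's value, bars are group means and whiskers are SD; each vertical axis starts at 0 and has its own scale. The IRKO libraries lie apart from the controls for Hsd11b1 and Tsc22d3 (below) and for Fkbp5 and Sgk1 (above), and overlap them for the other 4 genes.

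Nr3c1 lies on chromosome 18 from 39410545 to 39519421 (build GRCm38.p6, as are all positions here). Its normalized counts were 1322, 1406, 1089 and 1162 in IRKO replicates 1 to 4, against 1214 and 1197 in control replicates 1 and 2. IRKO replicates 1 and 2 lay above both controls and replicates 3 and 4 below both, so the groups overlapped. Nr3c1 averaged 1245 ± 145 (SD, n = 4) in IRKO and 1205 ± 11.98 (SD, n = 2) in control precipitates, a log2 change of 0.039 ± 0.128 (SE, limma adjusted p = 0.81). The 95% interval of the change ran from 0.841-fold to 1.26-fold. With each library scaled to an equal total instead of the authors' size factors, the log2 change was 0.46 and passed (limma adjusted p = 0.00798), where the median of all genes moved to 0.43.

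Nr3c2, on chromosome 8 from 76898083 to 77245012, encodes the receptor that binds aldosterone and, with high affinity, glucocorticoids. Its normalized counts were 159, 154, 223 and 198 in the IRKO libraries, against 153 and 284 in the controls. All 4 IRKO values fell between the control values, and the spread between the control libraries, 0.887 on the log2 scale, was wider than that of 93.3% of genes tested. The log2 change was −0.20 ± 0.258 (SE, limma adjusted p = 0.536), with a 95% interval from 0.582-fold to 1.31-fold, and was 0.24 without control replicate 2. Reads of Nr3c2 lay between 136 and 293 in a library, and those of Hsd11b1 between 87 and 1818.

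Hsd11b1 had the largest change of the 8 genes. It encodes 11-beta-hydroxysteroid dehydrogenase type 1, which turns the inert keto form of the hormone back into the active one, and lies on chromosome 1 from 193221640 to 193264045. Normalized counts were 103, 110.4, 164 and 84.7 in IRKO replicates 1 to 4, against 1989 and 1760.2 in the controls. Every IRKO library lay far below both controls. The means were 116 ± 34.2 (SD, n = 4) in IRKO and 1874 ± 162 (SD, n = 2) in control precipitates, 16.5-fold lower in IRKO by the fit (log2 change −4.05 ± 0.234, SE, limma adjusted p = 1.51e-06). Only 129 of the 14698 genes tested had a lower log2 change. Astrocyte markers had a median log2 change of −3.97, with a range from −4.90 to −2.69, in the same libraries. The value of Hsd11b1 lay within that range. It also lay within the ranges of the liver markers (−8.255 to −3.578, 9 of 9 lower) and the oligodendrocyte precursor markers (−4.92 to 1.735). Of these last 8 markers 1 was lower and 4 were higher. The part of the astrocyte and oligodendrocyte precursor markers in the result was not tested. Liver is also known to express Hsd11b1 strongly; the liver marker sums were 811 in control replicate 1 and 11760 in control replicate 2, and their part in the result was not tested either.

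Sgk1 encodes a serum- and glucocorticoid-regulated kinase that is activated through PI3-kinase signalling and controls ion channels and transporters. It lies on chromosome 10 from 21882184 to 21999903. Its normalized counts were 1584, 1039.9, 1854 and 1769 in IRKO replicates 1 to 4, against 381 and 368 in the controls. All IRKO libraries were above both controls, replicate 2 the least so. Sgk1 rose 4.06-fold in IRKO (log2 change 2.02 ± 0.213, SE, limma adjusted p = 6.47e-05), and 133 genes had a higher log2 change. The microglia markers had a median log2 change of 1.66 and a highest value of 2.10. Sgk1 also lay within the range of the border macrophage and monocyte markers (−2.86 to 2.06), of which 2 of 9 were higher and 3 lower. It lay above the highest neuron marker, 1.74. The part of these cell types in the result was not tested. With each library scaled to an equal mean of the microglia markers, the median of all genes moved to −1.58. Sgk1 then stood at 0.42 and no longer passed (limma adjusted p = 0.147).

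Fkbp5 encodes FKBP51, a co-chaperone of the receptor complex that lowers the receptor's affinity for hormone and is itself induced by the receptor. It lies on chromosome 17 from 28398753 to 28486149. Normalized counts of Fkbp5 were 1717, 1893, 2499 and 3236 in the IRKO libraries, against 1174 and 577 in the controls. All IRKO values exceeded both controls, but the controls differed by 1.02 on the log2 scale, more than in 95.1% of genes tested. The fit gave 2.75-fold higher values in IRKO (log2 change 1.46 ± 0.307, SE, limma adjusted p = 0.00332). The log2 change was 0.95 without control replicate 2 (limma adjusted p = 0.0335) and 1.97 without control replicate 1. Scaled to the microglia markers, Fkbp5 turned to −0.15 (limma adjusted p = 0.632). As deposited, it lay within the ranges of the microglia (0.93 to 2.10), neuron (−0.032 to 1.74) and oligodendrocyte precursor (−4.92 to 1.735) markers. It also lay within those of the endothelial (−4.00 to 1.59), mural (−2.78 to 1.53) and border macrophage and monocyte (−2.86 to 2.06) markers. In that order 20, 13, 4, 6, 3 and 2 markers were higher and 0, 0, 1, 2, 2 and 3 lower. The part of these cell types in the result was not tested.

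Tsc22d3 encodes GILZ, a leucine zipper protein that is known to mediate anti-inflammatory effects of glucocorticoids. It lies on chromosome X from 140539528 to 140600522. The IRKO libraries had 3004, 2479, 2776 and 2554 normalized counts of Tsc22d3, against 11247 and 8407 in the controls. The IRKO values were close to one another, with a coefficient of variation of 8.77%, and all lay below both controls. Tsc22d3 fell 3.61-fold in IRKO (log2 change −1.85 ± 0.146, SE, limma adjusted p = 1.05e-05). Its log2 change lay above the highest of the astrocyte markers, −2.69, and below the lowest of the microglia markers, 0.93. It lay within the ranges of the choroid plexus and ependyma (−2.81 to 1.08), endothelial (−4.00 to 1.59) and mural (−2.78 to 1.53) markers. It also lay within those of the oligodendrocyte precursor (−4.92 to 1.735) and the border macrophage and monocyte (−2.86 to 2.06) markers. In that order 6 of 9, 2 of 12, 2 of 8, 1 of 8 and 3 of 9 markers were lower. Those higher were 0, 6, 3, 4 and 2. Over all genes 29% were lower and 26.6% higher. The part of these cell types in the result was not tested. Tsc22d3 stayed past the threshold in each scaling tried, with log2 changes from −3.46 scaled to the microglia markers to −1.43 scaled to library totals.

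Zbtb16 encodes PLZF, a zinc finger repressor strongly induced by glucocorticoids in many tissues, and lies on chromosome 9 from 48651797 to 48836225. It had 299, 378, 582 and 643 normalized counts in IRKO replicates 1 to 4, against 398 and 509 in the controls. IRKO replicates 1 and 2 were below both controls and replicates 3 and 4 above both. The log2 change was 0.0099 ± 0.289 (SE, limma adjusted p = 0.979), with a 95% interval from 0.641-fold to 1.58-fold. The spread over IRKO libraries, an SD of 0.519 on the log2 scale, was larger than that of 90.4% of genes tested.

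Ddit4 encodes REDD1, an inhibitor of mTORC1 that is induced by stress, low oxygen and glucocorticoids, and lies on chromosome 10 from 59949675 to 59951770. Normalized counts were 2354, 1383, 2070.3 and 1982 in the IRKO libraries, against 2072 and 1937 in the controls. IRKO replicate 1 lay above both controls and replicate 2 below both. The log2 change was −0.068 ± 0.190 (SE, limma adjusted p = 0.781), with a 95% interval from 0.708-fold to 1.28-fold.

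**Figure D2:**
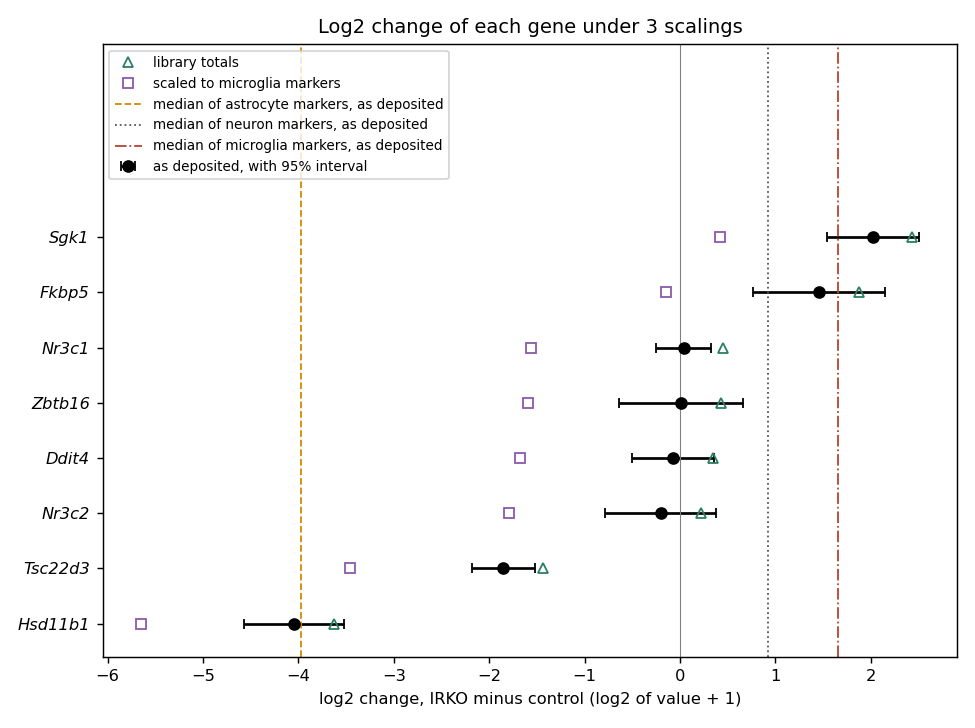
Log2 change, IRKO minus control, of each gene as deposited (circles, with 95% limma intervals), with libraries scaled to equal totals (triangles) and scaled to the microglia markers (squares). Vertical lines mark the median log2 change of microglia (1.66), neuron (0.92) and astrocyte (−3.97) markers as deposited. Hsd11b1 sits beside the astrocyte line and Sgk1 and Fkbp5 beside the microglia line, while Tsc22d3 lies between the lines. The square of Fkbp5 lies below 0, at −0.15. Marker ranges of cell types not drawn also held these values, and the part of any cell type was not tested.

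Within a library the ratio of 2 genes does not depend on the scaling. Its absolute size also reflects transcript length, so it is compared here between libraries only. Fkbp5 over Nr3c1 was 1.30, 1.35, 2.29 and 2.79 in IRKO replicates 1 to 4, against 0.968 and 0.482 in the controls. Sgk1 over Nr3c1 was 1.20, 0.740, 1.70 and 1.52 in IRKO, against 0.314 and 0.307 in the controls. For both ratios every IRKO library was above both controls. Tsc22d3 over Nr3c1 was 2.27, 1.76, 2.55 and 2.20 in IRKO, against 9.27 and 7.03 in the controls. The 4 IRKO libraries were all lower, so 3 genes known to be induced by the same receptor stood in opposite directions relative to the receptor's own transcript. Sgk1 over Tsc22d3 averaged 0.577 ± 0.128 (SD, n = 4) in IRKO and 0.0388 ± 0.00697 (SD, n = 2) in control precipitates. By the means of the log2 ratios it was 14.7-fold higher in IRKO. Nr3c2 over Nr3c1 overlapped between groups, at 0.109 to 0.205 in IRKO and 0.126 and 0.237 in the controls. An exact permutation test was run over the 15 splits of these samples, with its two-sided p taken as 2 times the smaller tail. Computed so, it can give no p below 0.133 (exact). The smallest p adjusted over the 28 pairs of the 8 genes was 0.177 (exact), so no ratio could pass.

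**Figure D3:**
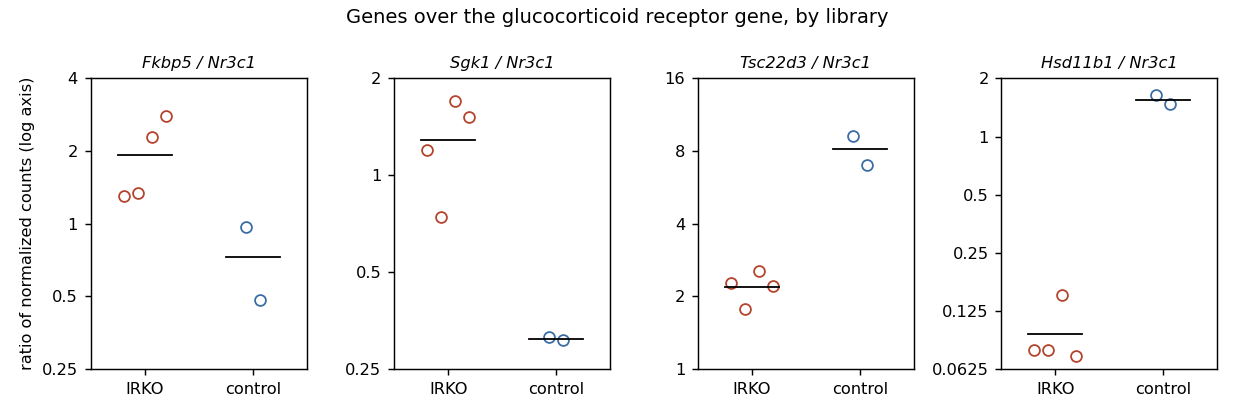
Ratio of the normalized counts of Fkbp5, Sgk1, Tsc22d3 and Hsd11b1 to that of Nr3c1 in each library, on log axes, with IRKO libraries on the left and controls on the right of each panel; lines are group means. Fkbp5 and Sgk1 are higher and Tsc22d3 and Hsd11b1 lower relative to Nr3c1 in all 4 IRKO libraries.

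The ratio of Zbtb16 to Fkbp5 varied little among the IRKO libraries, from 0.174 to 0.233, a coefficient of variation of 12%, although Zbtb16 alone varied by 34.4% and Fkbp5 alone by 29.4%. Both genes were higher in IRKO replicates 3 and 4 than in replicates 1 and 2, and Nr3c1 was lower there. The marker sums of oligodendrocytes (37240, 41660, 68530 and 54050) and of choroid plexus and ependyma (1094, 4120, 12540 and 7284) were also higher there. Astrocyte, oligodendrocyte precursor, endothelial and liver sums were higher there too. Microglia and red blood cell sums were lower there, and neuron, mural and border macrophage sums did not split this way. Their part in the pattern was not tested. In the control libraries the ratio of Zbtb16 to Fkbp5 was 0.339 and 0.883. Of the 28 ratios it had the smallest coefficient of variation in IRKO, a ranking made after the values were seen.

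Likeness of pattern was measured as the root mean square difference between log2 values centred on their mean over the 6 libraries. Predicted or clone-named genes, and all symbols ending in ps and a number, were left out of the search for nearest genes. Nearest to Nr3c1 were Hnrnpu (0.0275), Ppil4 (0.0343) and Otud1 (0.0346). Hsd11b1 was nearest to Slc13a5 (0.138), a citrate transporter, Nr2e1 (0.146), a nuclear receptor of neural stem cells, and Apln (0.160), which encodes the peptide apelin. For Tsc22d3 the nearest genes were Nde1 (0.0457), Nadk2 (0.0711) and Fdxr (0.0792). Those nearest to Fkbp5 were Pip5kl1 (0.117), Slfn8 (0.138) and Wsb1 (0.163), and those nearest to Sgk1 were Tes (0.148), Pln (0.151) and Nrl (0.153). Nr3c2 was closest to Lmo1 (0.101), Stpg1 (0.125) and Igsf3 (0.132), Zbtb16 to Pde1c (0.0958), Adgrv1 (0.112) and Dync2h1 (0.119), and Ddit4 to Anxa4 (0.0821), Sft2d3 (0.110) and Ifit2 (0.111). Among the 8 genes themselves the closest pair was Nr3c2 and Zbtb16 (0.294), and Fkbp5 and Sgk1 stood 0.465 apart.

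Other genes known to be induced by glucocorticoids went both ways as deposited, whereas scaled to the microglia markers, with the median of all genes at −1.58, 28 of them fell and 0 rose. Over all 14698 genes that scaling gave 12315 lower and 42 higher, so nothing is read from this count. In that scaling 0 genes rose in each of the lists that follow too. Of 34 listed, 33 were tested, 13 fell, 6 rose and 14 did not pass, with a median log2 change of −0.18 against 0.017 over all genes. Those that fell with the smallest p were Fam107a, an actin-binding protein gene (3503 ± 500 in IRKO and 37449 ± 9542 in controls, log2 change −3.40), the metallothioneins Mt1 (−2.99) and Mt2 (−3.40), which bind zinc and copper, and Klf15 (−2.56), a Kruppel-like transcription factor, with limma adjusted p of 1.13e-06 to 3.57e-06. The rises with the smallest p were those of Tgm2, tissue transglutaminase (636 ± 74.1 in IRKO and 259 ± 60.5 in controls, log2 change 1.31, limma adjusted p = 0.000217), and Cebpd, a transcription factor of the acute phase (log2 change 0.87, limma adjusted p = 0.0020). The share of the list that fell was 39.4%, against 29% of all genes, and the share that rose 18.2%, against 26.6%. The part of the astrocyte markers, with their median of −3.97, in the falls was not tested.

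More chaperones of the receptor complex fell than rose in IRKO as deposited. Of 13 tested 7 fell (53.8%, against 29% of all genes), none rose (against 26.6%) and 6 did not pass, with a median log2 change of −0.36. Fkbp4, which encodes FKBP52, the counterpart of FKBP51 that promotes receptor transport, had 3000.4, 2764, 2262 and 2082 normalized counts in IRKO, against 4415 and 4577 in the controls. It fell by 0.85 ± 0.157 on the log2 scale (SE, limma adjusted p = 0.00167), so as deposited it moved opposite to Fkbp5. Scaled to the microglia markers, Fkbp5 was −0.15 and all 13 chaperones fell. Ppp5c, a phosphatase (−0.79), St13, the HSP70-interacting protein (−0.84), and Hspa8, the constitutive HSP70 (−0.82), were the others with the smallest p. Hsp90aa1 (−0.079) and Hsp90ab1 (−0.28), chosen for their role and not by p, encode HSP90 itself and did not pass. Without control replicate 2 the number that fell was 4, and under quantile normalization 3 fell and 2 rose.

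Of 15 coactivators and corepressors 5 were higher (33.3%), 4 lower (26.7%) and 6 did not pass, with a median of −0.0079. These shares are near those of all genes, 26.6% and 29%. Nrip1, a corepressor of nuclear receptors (log2 change 1.38 ± 0.149, SE), Ncoa3 (1.13), Ep300 (0.74) and Crebbp (0.40), the last 3 acetyltransferases or coactivators, rose. Ncoa1, another steroid receptor coactivator, had 741, 786, 746 and 768 normalized counts in IRKO, against 1473 and 1337 in the controls (log2 change −0.88 ± 0.104, SE, limma adjusted p = 0.000127). Smarca4, the ATPase of a chromatin remodelling complex, fell by 0.57 on the log2 scale.

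Among 12 genes of steroid metabolism and transport 9 were tested, of which 4 rose (44.4%, against 26.6% of all genes), none fell (against 29%) and 5 did not pass, with a median of 0.59. H6pd, which supplies the cofactor that the Hsd11b1 enzyme needs, had 262, 176, 401 and 235 normalized counts in IRKO, against 137 and 111 in the controls. All IRKO values were higher (log2 change 1.05 ± 0.283, SE, limma adjusted p = 0.0118), as deposited the direction opposite to that of Hsd11b1. Crhr1, a receptor of corticotropin-releasing hormone (0.93), Abcb1a, a drug and steroid efflux pump (1.04), and Cyp11a1, the side-chain cleavage enzyme (0.63), also rose, though the number higher was 1 without control replicate 2. Hsd11b2, named for its role, whose enzyme inactivates the hormone, was not tested because its values were below the filter.

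Of 17 relatives of the 8 genes 15 were tested, with 5 higher (33.3%), 4 lower (26.7%) and 6 not passing, again near the 26.6% and 29% of all genes. Pgr, the progesterone receptor, a steroid receptor of the same family as Nr3c1, rose (log2 change 1.14 ± 0.224, SE, limma adjusted p = 0.00234). Ddit4l, the paralog of Ddit4, had 199, 265, 215 and 162 normalized counts in IRKO, against 612 and 631 in the controls. Ddit4l fell by 1.58 ± 0.189 on the log2 scale (SE, limma adjusted p = 0.000134), whereas Ddit4 did not pass. Tsc22d4 fell by 0.96 on the log2 scale and Tsc22d2, of the same leucine zipper family as Tsc22d3, rose by 0.58. Zbtb7a, a zinc finger repressor, rose by 0.72.

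Downstream of SGK1 and REDD1, 4 of 11 genes rose (36.4%, against 26.6% of all genes), 3 fell (27.3%, against 29%) and 4 did not pass, with a median of −0.28. Ndrg1, whose protein is a substrate of SGK1, had 1226, 976, 1309 and 1075 normalized counts in IRKO, against 584 and 387 in the controls (log2 change 1.26 ± 0.182, SE, limma adjusted p = 0.000413). Nedd4l, a ubiquitin ligase that SGK1 restrains (0.55), Rps6kb1, the S6 kinase (0.75), and Txnip, a thioredoxin-binding protein (1.51), rose as well. Tsc2 (−0.62) and Rheb (−0.49), an inhibitor and an activator of mTORC1, fell.

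**Figure D4:**
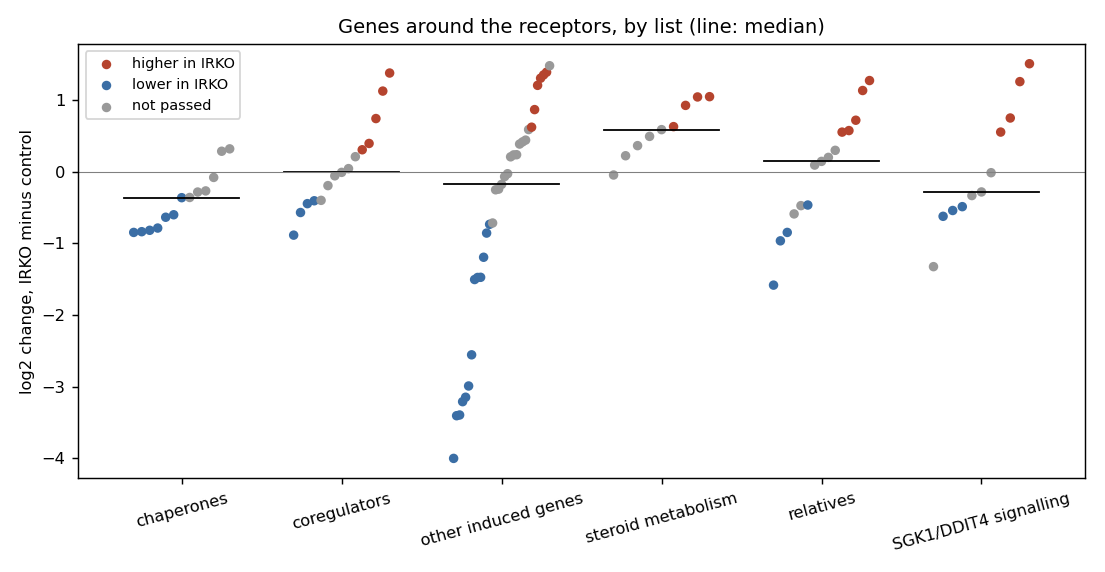
Log2 change, IRKO minus control, of each tested gene in 6 lists around the receptors, coloured by the limma call; horizontal lines are list medians. The list of other induced genes reaches furthest down, to −4.00, and the chaperones hold 7 falls and no rise.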

How the data were processed

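Ribosome-bound RNA of 6 precipitates was sequenced. Per the submitters' processing notes, Bowtie2 and the build GRCm38.p6 were used. How reads were assigned to genes, on which annotation and strand, and how size factors were made was not given in the sources used here. As deposited by the authors, each value is a signal per gene, its read count divided by 1 size factor per sample: dividing by the smallest value above 0 gave whole reads for 100% of values, within 0.05 reads. In IRKO replicate 1 a read was worth 0.991, close to 1, and its values too were whole multiples of that amount. The size factors recovered from the values equalled median-of-ratios factors in all 6 libraries, at a ratio of 1. Such a factor is the median, over genes, of a library's count over the gene's geometric mean.

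Genes reaching 10 in 2 or more samples were tested on log2(value + 1) with limma 3.58.1 in R 4.3.3, with a variance trend, IRKO minus control. Fold changes are on that scale, which understates low genes. Count tests on recovered reads called 8068 genes with edgeR 4.0.16 (7705 without IRKO replicate 1) and 7993 with DESeq2 1.42.0, against 8173 with limma. Chi-square per degree of freedom was 17.5 to 38.6 between replicates, so none was a duplicate. Nothing in the labels says that each replicate is a separate animal; the spread behind the p-values is that of these samples alone and could be technical. Positions came from the RefSeq table of GRCm38.p6, which held 18542 of the 18887 symbols.

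The genes, lists and tests were chosen with earlier results of these data known. Named genes were the 8 genes, Insr, the genes of smallest p in each list (at most 4 in the direction with more calls, at most 2 in the opposite one), and the 3 genes nearest in pattern to each of the 8; 1 gene that this rule picks is not reported here, though counts and medians include it. Other settings tried were a pseudocount of 0.5 or 5, a filter at 50 or none, TMM, quantile and microglia marker scaling, no variance trend, a replicate block, each sample left out, edgeR and DESeq2; scaling to library totals and the count tests without IRKO replicate 1 were chosen after seeing the data.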

Additional observations from a re-analysis of the deposited data

Results flagged for a closer look

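Of 41 genes examined for a library standing apart among the 4 IRKO libraries, Smarca4 did so: its normalized counts were 1560.2, 1549, 1374 and 1547 in IRKO replicates 1 to 4, against 2341 and 2129 in the controls, and the gap between replicate 3, the lowest, and the next value was 0.928 of the range, more than Dixon's 95% critical value for 4 samples. Chance alone puts about 1 group in 20 past that value.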

How the results depend on the processing

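The calls of Hsd11b1 and Tsc22d3 kept their direction and side of the threshold under all alternatives, and those of Fkbp5 and Sgk1 under all but scaling to the microglia markers, where Fkbp5 was −0.15 and Sgk1 0.42. That scaling moved the median of all genes to −1.58, with 42 of 14698 higher and 12315 lower; Nr3c1 was then −1.57 and Zbtb16 −1.59, and 0 of the 8 genes rose and 6 fell. In it none rose in any list, while 13 relatives, 28 other induced genes, 13 chaperones, 13 coregulators, 5 steroid metabolism genes and 9 signalling genes fell. With library totals (median 0.43, 6808 higher and 2441 lower) Ddit4 was 0.35 and Nr3c2 0.22; 8 relatives, 12 other induced genes, 2 chaperones and 9 coregulators rose, and 4 chaperones, 1 coregulator and 0 signalling genes fell. Quantile normalization (median 0.12, 4527 higher and 3559 lower) gave Ddit4 0.21, 2 chaperones higher, 3 lower and 2 coregulators lower. With no filter 1 steroid metabolism gene rose. The replicate numbers were not taken to pair the samples: only numbers 1 and 2 are shared, and same-numbered deviations correlated at −0.0824 and 0.0790. With the replicate block Zbtb16 was −0.42, 2 chaperones rose and 4 fell, 3 coregulators rose and 2 steroid metabolism genes rose, with 6935 genes called in all. Leaving out each library in turn gave log2 changes of −0.17 to 0.088 for Ddit4, −0.022 to 0.10 for Nr3c1, −0.64 to 0.24 for Nr3c2, −0.17 to 0.21 for Zbtb16 and −0.69 to 0.22 for Nr3c2 over Nr3c1, and counts of 0 to 1 chaperones higher and 4 to 7 lower, 3 to 5 coregulators higher, 1 to 4 steroid metabolism genes higher and 2 to 5 signalling genes lower. A lone control was then assumed to vary like the other group. The causes were not tested.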
